A study of Mus musculus with 8 samples.

Results

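This account follows 50 mouse genes for ribosome biogenesis and nucleolar proteins in stem cells with and without the X-linked zinc finger transcription factor Zfx. A list of 52 gene names set the members, and a gene was taken from Affymetrix Mouse Genome 430 2.0 arrays where the platform annotation paired a probe set with that name alone. Such a probe set was found for 50 of the 52 names, out of 18193 genes on the array. A gene with several probe sets was represented by the one that averaged highest on the log2 scale across the 8 arrays. Npm3 and Mrto4 had no probe set naming them alone and were not analysed here.

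The study placed 8 arrays in 4 groups of 2. The first pair of groups were hematopoietic stem and progenitor cells (HSC), sorted as Lin- Sca1+ c-Kit+ bone marrow cells. The Zfx-cko HSC came from Mx1-Cre+ Zfx flox/y mice, in which an interferon-inducible promoter drives Cre in marrow and other tissues, and the Zfx-flox HSC came from Cre- Zfx flox/y littermates. Both kinds of mice received pI·C and were taken 4 days after the last injection, so only the Zfx-cko cells had carried Cre. Marrow of several mice was pooled for each HSC sample, and the sources used here give no ages. The second pair of groups were clones of embryonic stem cells (ESC) grown on gelatin without feeders in serum replacement and LIF, either Zfx-null or Zfx-flox. Hybridization was in duplicate, and 1 RNA sample may therefore lie behind both arrays of a group. The p-values then reflect array-to-array spread, possibly no more than technical spread. HSC RNA had 2 rounds of amplification and ESC RNA had 1.

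Ribosomes are built mainly in the nucleolus, where RNA polymerase I transcribes the long precursor of ribosomal RNA. Small nucleolar ribonucleoproteins (snoRNPs) guide methylation and pseudouridylation of that precursor, and a large processome together with many assembly factors cuts, folds and packs it into the small and large subunits. Growing stem and progenitor cells need a steady supply of ribosomes, and many genes of the pathway are known targets of Myc, which binds E-box sequences.

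In HSC, ribosome biogenesis genes were broadly lower without Zfx. At an adjusted p below 0.05 (limma fitted on log2(signal + 14.2) over all tested genes), 39 of the 50 members fell in Zfx-cko HSC and 0 rose, a share of 78%. Of the 12533 tested genes 42.6% were called, 19.9% lower and 22.7% higher. The largest falls on the representing probe sets were those of Nolc1, Bysl, Ddx21 and Mybbp1a. The members' median log2 change was -0.54, against 0.03 over all tested genes, and on the linear scale Zfx-cko HSC had a median of 68.2% of the Zfx-flox signal. The 39 calls spanned log2 changes from -1.36 to -0.27, and the fitted change was below 0 for 48 of the 50.

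In ESC the falls were fewer and smaller. Of the 50 members, 14 fell in Zfx-null ESC and 0 rose, a share of 28%. Of the 12676 tested genes 30.7% were called, 14.9% lower and 15.8% higher. The members' median log2 change was -0.20, against -0.03 over all tested genes, and the calls spanned -0.48 to -0.21. The largest falls were those of Nop56, Utp14a, Ftsj3 and Rrp1b. The count moved with the settings: it was 8 without Zfx-null replicate 2 or without Zfx-flox replicate 1, and 9 without Zfx-flox replicate 2. It was 6 with arrays centred on their median within a cell type and 5 without a trend in the variance prior.

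All 14 members that fell in ESC also fell in HSC, 25 more fell in HSC but did not pass in ESC, and 11 passed in neither. The share of all genes that fell in both cell types is not given here, so this overlap cannot be set against it. All 50 members were bright enough to be tested in both cell types. Counted by arrays alone, both Zfx-cko arrays read below both Zfx-flox arrays for 45 members in HSC, where 33.4% of tested genes did so, and above them for 1, Nob1, where 39% did so. Both Zfx-null arrays read below both Zfx-flox arrays for 33 members in ESC, where 34.3% of tested genes did so, and above them for 1, Tsr1, where 30.1% did so.

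**Figure D1:**
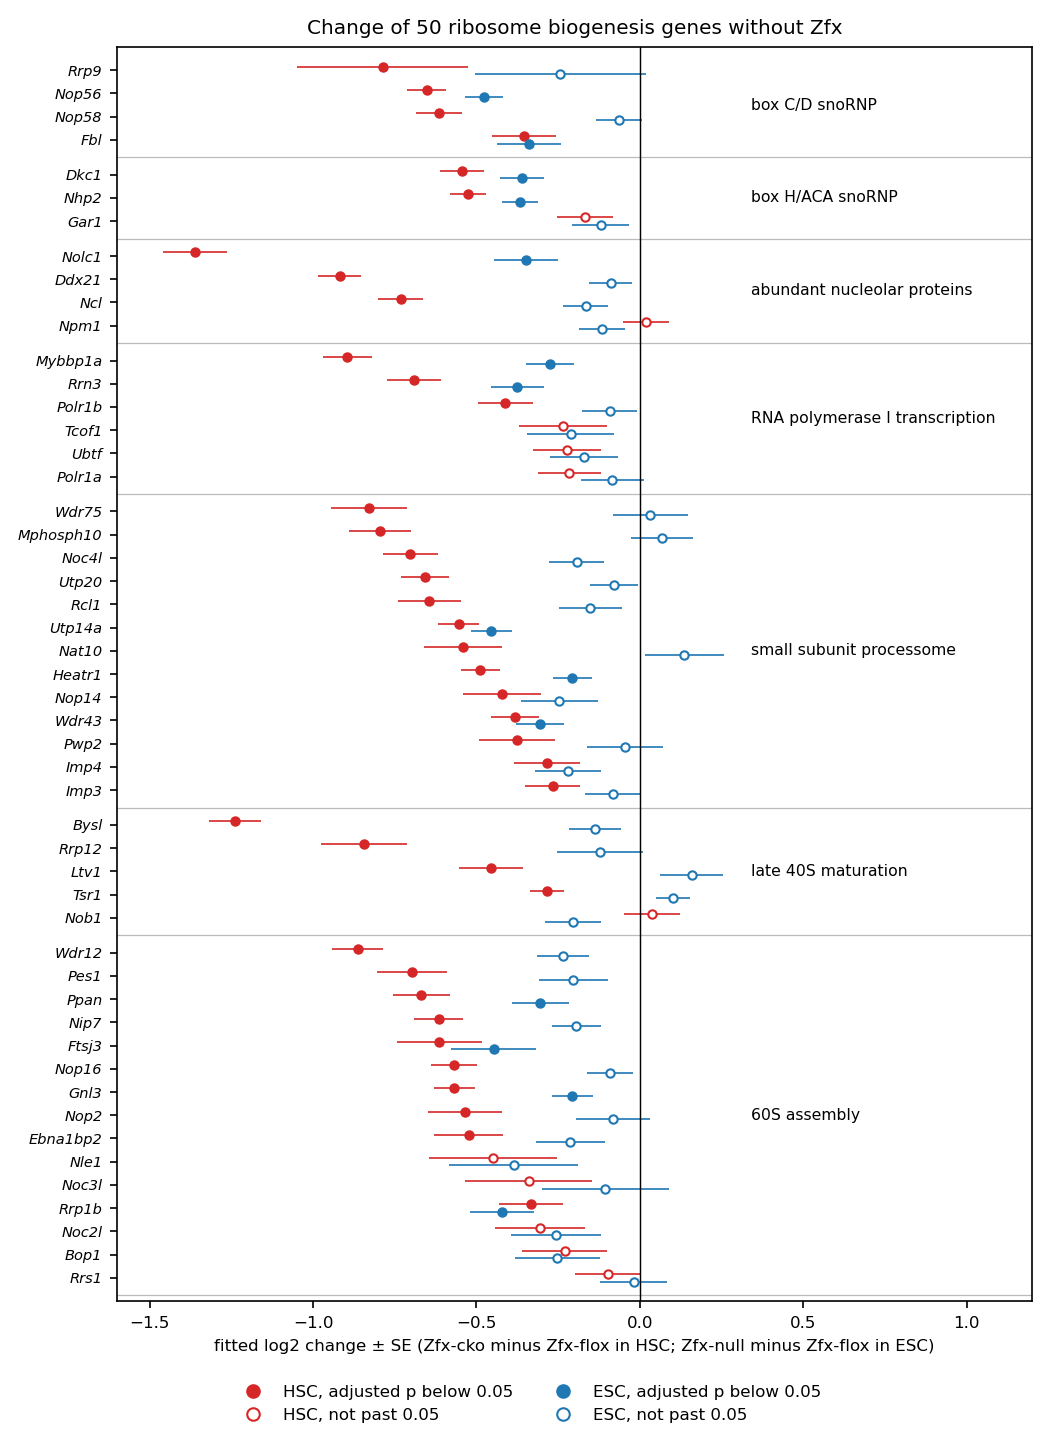
Fitted log2 change of each of the 50 members on the horizontal axis, with bars for the standard error, grouped by role in ribosome biogenesis; red points are Zfx-cko minus Zfx-flox HSC, blue points are Zfx-null minus Zfx-flox ESC, and filled points passed an adjusted p of 0.05. The red points lie left of 0 for 48 members and reach -1.36, while the blue points stay between -0.48 and 0.16.

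Markers of several cell types also differed between these groups. For comparison, 19.9% of all genes tested in HSC fell and 22.7% rose. In HSC, 4 of 7 tested erythroid and megakaryocyte markers fell, among them Klf1 (log2 change -2.52) and Gata1 (-1.64), and 2 rose, Pf4 (1.85) and Itga2b (0.95). Their summed signal over 8 genes was 8006 to 8056 in Zfx-cko HSC, against 14079 to 14437 in Zfx-flox HSC, with Hba-a1 at 20.3 in both. The largest fall in signal within that sum was that of Car1, which averaged 3216 in Zfx-cko and 9095 in Zfx-flox HSC. Pf4 went the other way within it, averaging 3389 and 930. Of 5 tested HSC markers 4 rose, with Flt3 at 2.44 and Cd34 at 1.62, and their sum was 10377 to 10517 in Zfx-cko HSC, against 4625 to 4737 in Zfx-flox HSC. All 3 tested lymphoid markers rose, and the sum over 7 lymphoid genes was 3222 to 3418 in Zfx-cko HSC, against 1291 to 1324 in Zfx-flox HSC. Most of that sum was Nkg7, which averaged 2884 in Zfx-cko and 1126 in Zfx-flox HSC. The other risers were Cd79b, which averaged 216 and 69.2, and Il7r, which averaged 164 and 75.3. Cd3e stayed below the added 14.2 on every HSC array and Ebf1 on all but Zfx-cko replicate 1. Mast cell markers rose for 2 of 5 tested genes, with a sum of 3573 to 3720.3 in Zfx-cko HSC, against 1911 to 1943 in Zfx-flox HSC. Granulocyte and monocyte markers rose for 2 of 8 (25%), near the 22.7% of all tested genes, and 3 of the 8 had a fitted change below 0. In ESC, where 14.9% of tested genes fell and 15.8% rose, 12 of 17 tested fibroblast and stroma markers rose. The sum of that list was 52640 to 56219 in Zfx-null ESC, against 32498 to 34397 in Zfx-flox ESC. Of 7 tested endoderm markers 2 rose, with a sum of 5755 to 5922 in Zfx-null ESC, against 3237 to 3267 in Zfx-flox ESC. Most of that sum came from the 2 risers. Col4a1 averaged 3863 in Zfx-null and 1981 in Zfx-flox ESC, and Dab2 1140 and 406. Gata4 (-0.39), Foxa2 (-0.26) and Lama1 (-0.14) had log2 changes below 0, none past the threshold. In HSC, where 22.7% of tested genes rose, 4 of 11 tested fibroblast and stroma markers rose and 0 fell. The risers were Pdgfrb (2.00), S100a4 (1.40), Thy1 (1.13) and Fn1 (0.49), while Col1a1, Col3a1, Postn and Tagln were too dim to be tested. Of 6 tested endoderm markers 3 rose and 0 fell, the risers being Afp (1.21), Dab2 (0.64) and Col4a1 (0.59). The sums of the 2 lists were 1644 to 1751 and 1205 to 1372 in Zfx-cko HSC, against 795 to 827 and 653 to 689 in Zfx-flox HSC. Of the 4 ESC markers, Pou5f1 (-1.01) and Nanog (-0.71) fell. The part of these cell type markers in the members' changes was not tested, and in such bulk samples fewer cells of a type and less RNA per cell cannot be told apart. Every array had been scaled to the same trimmed mean, so a change in total RNA per cell would not show.

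The labels were checked on Zfx. The probe set 1422249_s_at, which the annotation gives to Zfx and a Zfa pseudogene, read 1.32 and 0.878 in Zfx-null ESC, against 285 and 298 in Zfx-flox ESC. In HSC it read 1.34 and 0.305 in Zfx-cko cells, against 7.22 and 0.971 in Zfx-flox cells, too low in both to check the deletion. Other Zfx probe sets were higher in Zfx-null ESC or did not pass the test. In HSC 1425972_a_at was the only one called, at 1192 and 1209 in Zfx-cko cells, against 696 and 752 in Zfx-flox cells (log2 change 0.72, adjusted p = 0.000815), and the sources used here do not place these probe sets relative to the deleted part. Labelled ESC read 1604 or more for the group means of Pou5f1, Nanog, Sox2 and Zfp42, and labelled HSC read 17.8 or less. Arrays of 1 group correlated at 0.980 to 0.987 over probe sets on the log2 scale. The log2 ratio of the Gapdh 5′ to 3′ control probe sets, a measure of how far amplified RNA reaches, was -4.68 and -4.39 in Zfx-cko HSC, against -4.18 and -4.25 in Zfx-flox HSC, and 0.38 to 0.44 in ESC. The part of that difference between the HSC groups in their comparison was not tested.

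The promoters of 6 members are shown because their genes carry the results: Nolc1, Bysl and Ddx21 fell furthest in HSC, Nop56 fell furthest in ESC, and Rrn3 and Mybbp1a are the genes of RNA polymerase I transcription that fell in both. They were chosen after the values were seen. Each is 300 bases of RefSeq sequence (build GRCm38.p6) on the gene's own strand, from 250 bases before the annotated start to 50 after it, and positions count from that start. The windows are chr19:46075597-46075896 (plus strand) for Nolc1, chr17:47611443-47611742 (minus strand) for Bysl, chr10:62602249-62602548 (minus strand) for Ddx21, chr2:130274162-130274461 (plus strand) for Nop56, chr16:13780449-13780748 (plus strand) for Rrn3 and chr11:72441077-72441376 (plus strand) for Mybbp1a. Capitals mark CACGTG, the palindromic E-box that Myc binds, and CGGAAG or its reverse complement CTTCCG, a sequence around the core that ETS factors bind.
Nolc1: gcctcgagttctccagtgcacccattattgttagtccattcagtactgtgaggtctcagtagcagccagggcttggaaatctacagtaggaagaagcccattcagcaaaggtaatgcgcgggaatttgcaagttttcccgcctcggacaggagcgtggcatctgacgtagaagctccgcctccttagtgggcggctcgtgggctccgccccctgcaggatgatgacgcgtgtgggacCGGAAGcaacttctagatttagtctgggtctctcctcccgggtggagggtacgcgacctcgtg
Bysl: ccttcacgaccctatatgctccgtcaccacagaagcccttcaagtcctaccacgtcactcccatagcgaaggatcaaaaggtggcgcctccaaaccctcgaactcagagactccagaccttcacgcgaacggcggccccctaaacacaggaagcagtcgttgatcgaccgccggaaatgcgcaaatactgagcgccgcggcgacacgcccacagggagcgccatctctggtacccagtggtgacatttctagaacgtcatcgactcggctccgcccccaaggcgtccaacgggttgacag
Ddx21: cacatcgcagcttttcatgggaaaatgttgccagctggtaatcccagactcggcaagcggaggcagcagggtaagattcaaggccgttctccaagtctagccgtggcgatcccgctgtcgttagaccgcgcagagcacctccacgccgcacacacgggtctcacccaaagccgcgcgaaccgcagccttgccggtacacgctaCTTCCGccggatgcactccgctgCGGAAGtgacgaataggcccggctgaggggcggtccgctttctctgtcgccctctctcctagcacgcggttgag
Nop56: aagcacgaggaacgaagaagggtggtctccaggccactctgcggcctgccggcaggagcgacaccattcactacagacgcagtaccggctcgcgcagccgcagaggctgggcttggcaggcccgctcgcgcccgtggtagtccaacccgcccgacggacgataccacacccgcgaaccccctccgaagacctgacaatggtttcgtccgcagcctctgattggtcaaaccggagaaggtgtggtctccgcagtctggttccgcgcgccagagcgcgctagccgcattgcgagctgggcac
Rrn3: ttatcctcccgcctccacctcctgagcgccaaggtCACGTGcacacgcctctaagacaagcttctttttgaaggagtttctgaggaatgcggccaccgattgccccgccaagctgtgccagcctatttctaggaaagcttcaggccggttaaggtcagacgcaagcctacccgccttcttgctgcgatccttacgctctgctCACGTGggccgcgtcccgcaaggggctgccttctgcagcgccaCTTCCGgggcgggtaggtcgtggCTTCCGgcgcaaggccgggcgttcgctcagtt
Mybbp1a: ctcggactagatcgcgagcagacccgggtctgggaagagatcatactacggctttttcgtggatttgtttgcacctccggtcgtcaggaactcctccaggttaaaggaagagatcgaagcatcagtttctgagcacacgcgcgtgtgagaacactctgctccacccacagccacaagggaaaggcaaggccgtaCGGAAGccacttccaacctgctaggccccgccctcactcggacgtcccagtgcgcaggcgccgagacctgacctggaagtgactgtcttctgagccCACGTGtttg

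The Rrn3 window held CACGTG at -215 and -48 and CTTCCG at -5 and 19, and the Mybbp1a window held CACGTG at 41 and CGGAAG at -56. CGGAAG stood at -13 in the Nolc1 window, and the Ddx21 window held CTTCCG at -47 and CGGAAG at -24. Neither sequence was in the Bysl or Nop56 window. The relation of these sequences to the size of the falls was not tested. RefSeq windows were at hand for 46 members, some with more than 1 annotated start, which made 55 windows. CACGTG was in 10 of the 55 windows (18.2%), against 7.15% of all 32851 windows and 9.55% of the 12928 windows of genes tested in HSC. CGGAAG on either strand was in 26 (47.3%), against 16.9% of all windows and 28.8% of those of genes tested in HSC. AGGCCT, a palindrome reported at the sites Zfx binds, was in 2 (3.64%), those of Imp4 and Ubtf, against 10.3% of all windows and 10.6% of those of genes tested in HSC. Both strands were read, and windows rather than sites were counted, so motifs that share bases did not add to a count. A match or its absence describes the window only.

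Among the proteins of box C/D snoRNPs, which carry out 2′-O-methylation of rRNA, all 4 members fell in HSC and 2 fell in ESC. Nop56, a core scaffold protein of the particle, read 1698 and 1762 in Zfx-cko HSC, against 2760.2 and 2695 in Zfx-flox HSC (log2 change -0.65, SE 0.06, adjusted p = 3.7e-05). In ESC it read 2751 and 2672 in Zfx-null ESC, against 3938 and 3626 in Zfx-flox ESC (log2 change -0.48, SE 0.06, adjusted p = 0.00052), the largest fall among the members there. The Zfx-deleted arrays were the lower ones in both cell types, with no overlap. Another Nop56 probe set, 1426533_at, fell less in HSC (log2 change -0.26, adjusted p = 0.0138 over all probe sets) than in ESC (-0.61, adjusted p = 0.000322). Its difference, HSC minus ESC, was 0.36 (adjusted p = 0.0175), against -0.18 on the representing probe set, which did not pass. Which cell type had the larger Nop56 fall thus depended on the probe set.

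Fbl, fibrillarin, the methyltransferase of the particle, read 2803 and 2714 in Zfx-cko HSC, against 3472 and 3591 in Zfx-flox HSC (log2 change -0.35, SE 0.10, adjusted p = 0.0164). It read 2480.0 and 3154 in Zfx-null ESC, against 3588 and 3494 in Zfx-flox ESC (log2 change -0.34, SE 0.10, adjusted p = 0.0279), with Zfx-null replicate 1 lowest. The groups did not overlap in either cell type, yet the Fbl call in HSC was lost without any 1 of the 4 HSC arrays (adjusted p 0.0535 to 0.0887), and that in ESC without Zfx-null replicate 1 (log2 change -0.17), Zfx-flox replicate 1 or Zfx-flox replicate 2. Nop58, the partner of Nop56, fell in HSC by 0.61 on the log2 scale and had a change of -0.06 in ESC. Rrp9, which binds the U3 snoRNA, read 77.9 and 32.3 in Zfx-cko HSC, against 96.4 and 101 in Zfx-flox HSC (log2 change -0.79, SE 0.26, adjusted p = 0.0379). Its fall rested on Zfx-cko replicate 2: without that array the log2 change was -0.30 (adjusted p = 0.146), without Zfx-cko replicate 1 it was -1.28. Leaving out any array other than Zfx-cko replicate 1 lost the call (adjusted p 0.0529 to 0.146).

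Box H/ACA snoRNPs make pseudouridine in rRNA, and dyskerin is their catalytic subunit. Dkc1, the dyskerin gene, read 4743 and 5154 in Zfx-cko HSC, against 7033 and 7403 in Zfx-flox HSC (log2 change -0.54, SE 0.07, adjusted p = 0.000199). In ESC it read 2922 and 3208 in Zfx-null ESC, against 3888 and 3985 in Zfx-flox ESC (log2 change -0.36, SE 0.07, adjusted p = 0.00361). Nhp2, a core protein of the same particle, read 3821 and 4116 in Zfx-null ESC, against 5044 and 5190.3 in Zfx-flox ESC (log2 change -0.37, SE 0.06, adjusted p = 0.00141), and its log2 change in HSC was -0.53. Both genes were lower in the Zfx-deleted arrays of both cell types, without overlap, and both ESC calls held without any 1 array. Gar1, another core protein of the particle, did not pass in either cell type, with log2 changes of -0.17 in HSC and -0.12 in ESC.

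The abundant nucleolar proteins held the largest single fall on a representing probe set, that of Nolc1, a rank that depended on the probe set. Nolc1 (Nopp140), a phosphoprotein that binds snoRNPs, read 689.5 and 730.3 in Zfx-cko HSC, against 1789 and 1902 in Zfx-flox HSC (log2 change -1.36, SE 0.10, adjusted p = 1.01e-05), so that Zfx-cko HSC had 38.5% of the Zfx-flox signal. Its other probe sets had log2 changes of -0.58 and -0.70, and with all probe sets of a gene averaged Nolc1 had -0.88, less than Ddx21 (-1.03) and Bysl (-0.92). In ESC it read 1477 and 1346 in Zfx-null ESC, against 1992 and 1626 in Zfx-flox ESC (log2 change -0.35, SE 0.10, adjusted p = 0.0254), a call lost without Zfx-null replicate 2 (adjusted p = 0.126) and without Zfx-flox replicate 1 (log2 change -0.20, adjusted p = 0.141). The HSC groups lay far apart and the ESC groups lay close, with Zfx-flox replicate 1 above the other ESC arrays.

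Ddx21, an RNA helicase that binds rRNA and snoRNAs, read 1119 and 1047 in Zfx-cko HSC, against 2100.4 and 2018 in Zfx-flox HSC (log2 change -0.92, SE 0.07, adjusted p = 9.16e-06). In ESC its log2 change was -0.09 and did not pass. Ncl, nucleolin, which binds the rRNA precursor, read 3354 and 3315 in Zfx-cko HSC, against 5264 and 5848 in Zfx-flox HSC (log2 change -0.73, SE 0.07, adjusted p = 4.3e-05). It read 6226 and 6512 in Zfx-null ESC, against 6827 and 7474 in Zfx-flox ESC (log2 change -0.17, SE 0.07, adjusted p = 0.103), without overlap but short of the threshold. For both genes the clear separation was in HSC.

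Npm1, nucleophosmin, a histone and assembly chaperone, stood apart on the probe set that represents it. It read 11346 and 11050.0 in Zfx-cko HSC, against 11037 and 11070.4 in Zfx-flox HSC (log2 change 0.02, SE 0.07, adjusted p = 0.863), and 8571 and 9310.4 in Zfx-null ESC, against 9068 and 10322 in Zfx-flox ESC (log2 change -0.11, SE 0.07, adjusted p = 0.26). The HSC arrays overlapped and so did the ESC ones. This probe set was among the brightest on the array, at or above percentile 99.8 of probe sets on every array. Another Npm1 probe set, 1432416_a_at, read 2499 and 2609 in Zfx-cko HSC, against 4651 and 4998 in Zfx-flox HSC (log2 change -0.91, adjusted p = 6.46e-06 over all probe sets). The probe sets of Npm1 thus disagree in HSC, and its level there is uncertain.

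**Figure D2:**
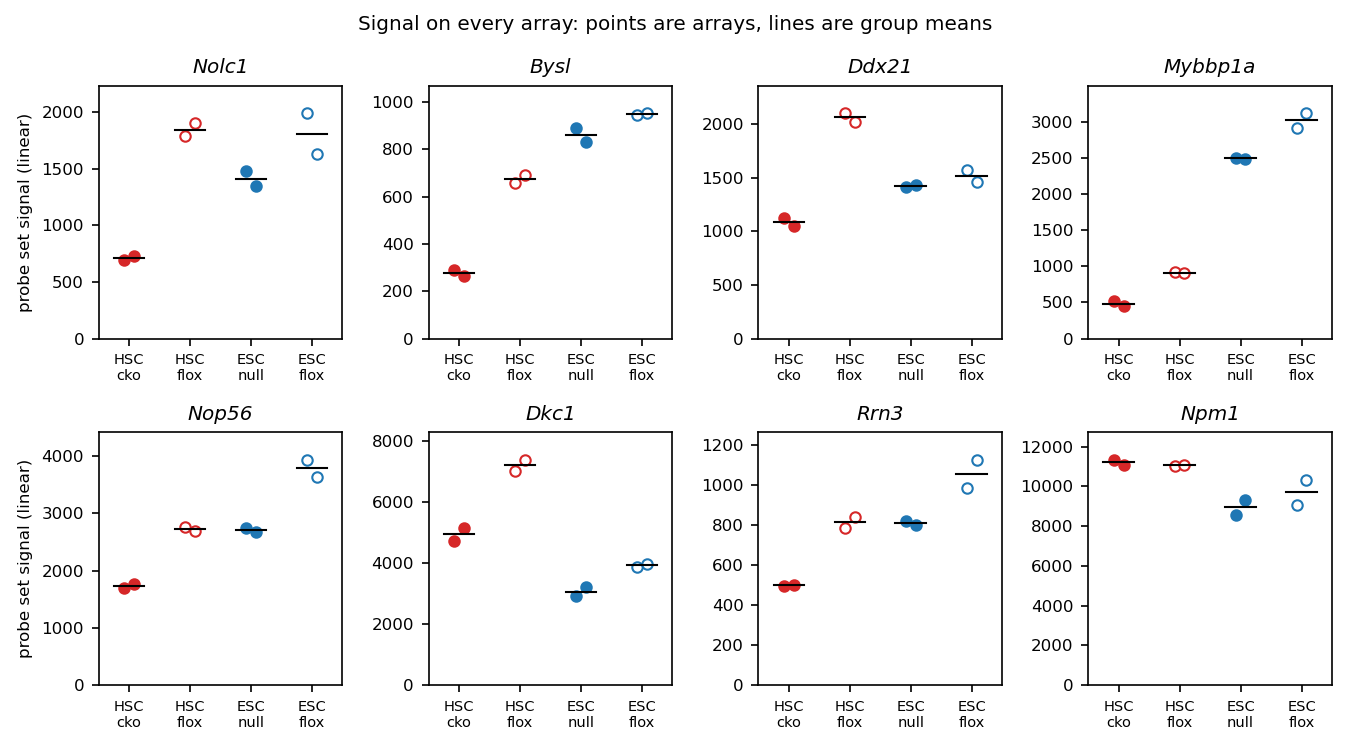
Linear probe set signal of 8 members on every array, with the deleted group left of its Zfx-flox group in each cell type; filled points are Zfx-cko HSC and Zfx-null ESC arrays, open points are Zfx-flox arrays, and lines are group means. Nolc1, Bysl and Ddx21 show wider gaps between group means in HSC than in ESC, Mybbp1a, Nop56 and Dkc1 separate in both, and Npm1 on its representing probe set separates in neither.

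Of the 6 members that serve transcription by RNA polymerase I, 3 fell in HSC and 2 in ESC. Mybbp1a, a nucleolar Myb-binding protein that acts on rRNA transcription and processing, read 516 and 451 in Zfx-cko HSC, against 916 and 902 in Zfx-flox HSC (log2 change -0.89, SE 0.07, adjusted p = 2.22e-05). It read 2502 and 2485 in Zfx-null ESC, against 2919.5 and 3123 in Zfx-flox ESC (log2 change -0.27, SE 0.07, adjusted p = 0.0221). Rrn3 (TIF-IA), which recruits the polymerase to the rDNA promoter and carries growth signals to it, read 818 and 799 in Zfx-null ESC, against 983 and 1126 in Zfx-flox ESC (log2 change -0.37, SE 0.08, adjusted p = 0.0084), and its log2 change in HSC was -0.69. Neither gene's arrays overlapped between groups. The ESC call of Mybbp1a was lost without either Zfx-null array or without Zfx-flox replicate 2 (adjusted p 0.0698 to 0.115), and that of Rrn3 without Zfx-flox replicate 2 (adjusted p = 0.0506). Polr1b, a catalytic subunit, fell in HSC (log2 change -0.41) and had -0.09 in ESC. The largest subunit Polr1a, the rDNA-binding factor Ubtf and treacle (Tcof1) did not pass in either, with log2 changes of -0.22, -0.22 and -0.24 in HSC.

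All 13 members of the small subunit processome, the particle that cleaves the precursor and folds the small subunit rRNA, fell in HSC, with a median log2 change of -0.54. In ESC, 3 fell and the median was -0.15. Wdr75, of the subcomplex that joins the nascent transcript early, read 619 and 669 in Zfx-cko HSC, against 1163 and 1143 in Zfx-flox HSC (log2 change -0.83, SE 0.12, adjusted p = 0.000433). Mphosph10, which forms a complex with Imp3 and Imp4, read 342 and 344 in Zfx-cko HSC, against 613 and 599.7 in Zfx-flox HSC (log2 change -0.80, SE 0.10, adjusted p = 0.000181). Noc4l, whose yeast counterpart pairs with Nop14, read 2393 and 2361 in Zfx-cko HSC, against 3792 and 3961 in Zfx-flox HSC (log2 change -0.70, SE 0.08, adjusted p = 0.000178). None of these groups overlapped in HSC. With probe sets averaged the HSC changes were smaller for Wdr75 (-0.42, adjusted p = 0.0163) and Mphosph10 (-0.38, adjusted p = 0.0101), whose second probe sets had -0.02 and 0.03. The remaining log2 changes in HSC were -0.66 for the scaffold protein Utp20, -0.64 for Rcl1, -0.54 for the rRNA acetyltransferase Nat10, -0.49 for Heatr1 and -0.42 for Nop14. They were -0.38 for Pwp2, -0.28 for Imp4 and -0.27 for Imp3, the smallest of the falls.

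Utp14a, which in yeast activates the helicase that frees U3 from the precursor, was the processome member that moved most in ESC on the representing probe sets. It read 899 and 959 in Zfx-null ESC, against 1269.7 and 1284 in Zfx-flox ESC (log2 change -0.45, SE 0.06, adjusted p = 0.000858), and its log2 change in HSC was -0.55. With its probe sets averaged, the ESC change was -0.30 (adjusted p = 0.0437). Wdr43, an early-joining member like Wdr75, read 1369.5 and 1533 in Zfx-null ESC, against 1733 and 1860.5 in Zfx-flox ESC (log2 change -0.31, SE 0.07, adjusted p = 0.0131), and its log2 change in HSC was -0.38. Heatr1 was the third to fall in ESC, by 0.21 on the log2 scale. The Zfx-null arrays were the lower ones for all of these, and the Wdr43 call was lost without Zfx-null replicate 1 or Zfx-flox replicate 2 (adjusted p 0.0746 and 0.075). Mphosph10, Wdr75 and Nat10 had ESC changes of 0.07, 0.03 and 0.14, none past the threshold.

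Among 5 factors of late small subunit maturation, 4 fell in HSC and 0 in ESC. Bysl, bystin, which escorts the small subunit precursor toward export, read 290.1 and 264 in Zfx-cko HSC, against 656 and 689 in Zfx-flox HSC (log2 change -1.24, SE 0.08, adjusted p = 5.22e-06), 41.2% of the Zfx-flox signal. In ESC it read 892 and 830.4 in Zfx-null ESC, against 943 and 953 in Zfx-flox ESC (log2 change -0.14, SE 0.08, adjusted p = 0.232), lower in both Zfx-null arrays but short of the threshold. Rrp12, which takes part in export of the precursors, read 132 and 153 in Zfx-cko HSC, against 289.6 and 245 in Zfx-flox HSC (log2 change -0.84, SE 0.13, adjusted p = 0.000813). Ltv1 and the GTPase-like factor Tsr1 fell in HSC, with log2 changes of -0.45 and -0.28, and had 0.16 and 0.10 in ESC. Nob1, the endonuclease that makes the final cut in the small subunit rRNA, read 236 and 234 in Zfx-cko HSC, against 229.7 and 228 in Zfx-flox HSC (log2 change 0.04, adjusted p = 0.776). It was the only member whose Zfx-cko arrays were both above the Zfx-flox arrays, by a small margin that did not pass.

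Of the 15 large subunit assembly members, 10 fell in HSC and 4 in ESC. Pes1, Bop1 and Wdr12 form the PeBoW complex, which is needed to process the large subunit rRNA. Wdr12 read 801 and 737 in Zfx-cko HSC, against 1344 and 1477 in Zfx-flox HSC (log2 change -0.86, SE 0.08, adjusted p = 3.7e-05), and Pes1 read 512 and 609 in Zfx-cko HSC, against 840.3 and 994 in Zfx-flox HSC (log2 change -0.70, SE 0.11, adjusted p = 0.000727). Their groups did not overlap, while Bop1 read 396 and 292 in Zfx-cko HSC, against 386 and 416 in Zfx-flox HSC and missed the threshold (-0.23 on the log2 scale, adjusted p = 0.193). With all probe sets of a gene averaged, the Wdr12 change was -0.41 and no longer passed (adjusted p = 0.0738). The other falls in HSC were those of Ppan (-0.67), Nip7 (-0.62), Ftsj3 (-0.61), Nop16 (-0.57), nucleostemin or Gnl3 (-0.57), the rRNA methyltransferase Nop2 (-0.54), Ebna1bp2 (-0.52) and Rrp1b (-0.33) on the log2 scale. Nle1, Noc3l, Noc2l and Rrs1 did not pass, with -0.45, -0.34, -0.30 and -0.10. Noc3l read 407 and 377 in Zfx-cko HSC, against 648 and 384 in Zfx-flox HSC, so 1 of its Zfx-flox arrays lay near the Zfx-cko ones.

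In ESC, the rRNA methyltransferase gene Ftsj3 read 862 and 851 in Zfx-null ESC, against 1243 and 1106 in Zfx-flox ESC (log2 change -0.45, SE 0.13, adjusted p = 0.0293). Rrp1b read 1331 and 1252 in Zfx-null ESC, against 1591 and 1892 in Zfx-flox ESC (log2 change -0.42, SE 0.10, adjusted p = 0.011). Ppan, whose yeast counterpart is needed for large subunit rRNA processing, read 859.9 and 782 in Zfx-null ESC, against 1068 and 969 in Zfx-flox ESC (log2 change -0.31, SE 0.09, adjusted p = 0.0274). The Zfx-null arrays were below the Zfx-flox arrays for all of these. Their calls were not firm: that of Ftsj3 was lost without any 1 of the 4 ESC arrays (adjusted p 0.0567 to 0.168), that of Rrp1b without Zfx-null replicate 2 or Zfx-flox replicate 2 (0.059 and 0.0681), and that of Ppan without Zfx-null replicate 2 or Zfx-flox replicate 1 (0.136 and 0.147). Gnl3 was the remaining fall, by 0.21 on the log2 scale.

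The change in HSC was tested against the change in ESC as a difference of effects. On the representing probe sets it was lower in HSC for 22 of the 50 members (44%) and higher for 0. Of the 11175 genes tested in both cell types 35.3% were called, 17.7% lower and 17.6% higher. The members' median difference was -0.32 on the log2 scale, against 0.03 over all these genes. The 22 included 7 of 13 processome members, 4 of 5 late small subunit factors, 6 of 15 large subunit factors, 3 of 4 abundant nucleolar proteins, and Nop58 and Mybbp1a, but 0 of 3 box H/ACA proteins. HSC RNA had an additional round of amplification, so cell type and amplification cannot be told apart in this difference.

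The largest difference was that of Bysl (-1.10, SE 0.11, adjusted p = 0.000149), followed by Nolc1 (-1.01, SE 0.14, adjusted p = 0.000687). Mphosph10 differed by -0.86 (SE 0.14, adjusted p = 0.0014) and Wdr75 by -0.86 (SE 0.16, adjusted p = 0.00367). Ddx21 differed by -0.83 (SE 0.09, adjusted p = 0.000229) and Rrp12 by -0.72 (SE 0.19, adjusted p = 0.0155). These genes fell in HSC and, except for Nolc1, did not pass in ESC. The Rrp12 difference was lost without ESC Zfx-flox replicate 2, Zfx-cko replicate 1 or HSC Zfx-flox replicate 1 (adjusted p 0.0521 to 0.0563). Those of Mphosph10 (-0.36) and Wdr75 (-0.34) were lost when all probe sets of a gene were averaged, and that of Nolc1 was then -0.54 (adjusted p = 0.0321).

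Levels of a member in ESC and HSC were not tested against each other, and they also depended on the probe set. Among 31 members with more than 1 probe set tested in both cell types, the log2 ratio of Zfx-flox HSC to Zfx-flox ESC had opposite signs on different probe sets for 14, and spread over more than 1 log2 unit for 17. For Noc4l it ran from -1.47 to 2.46 over 4 probe sets, and for Ncl from -4.81 to 1.68 over 5.

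Other probe sets of the members were looked at for the Zfx comparisons. In HSC, 42 such probe sets of 32 members were tested, of which 22 fell and 1 rose, adjusted over all probe sets. In ESC, 42 of 31 members were tested, of which 11 fell and 0 rose. The share of all tested probe sets called is not given here, so the counts of other probe sets cannot be set against it. For Rrs1, which helps bring the small 5S particle into the large subunit, the probe set 1416998_at read 1093 and 1106 in Zfx-cko HSC, against 2102 and 2231 in Zfx-flox HSC (log2 change -0.97, adjusted p = 4.05e-05), whereas its representing probe set had -0.10 and did not pass. The riser was Bop1 on 1430491_at, at 119 and 118 in Zfx-cko HSC, against 58.3 and 58.0 in Zfx-flox HSC (log2 change 0.87, adjusted p = 0.000853), against the fitted -0.23 of its representing probe set. No member had probe sets called in opposite directions within a cell type, but in HSC Npm1, Rrs1 and Bop1 were each called on one probe set and not on the representing one. With the same adjustment over probe sets, Imp4 passed in HSC on 1455723_at (adjusted p = 0.00915) but not on its representing probe set (adjusted p = 0.0555, against 0.0483 over genes). In ESC this held for Noc2l on 1436136_at (log2 change -0.48, adjusted p = 0.0142) and Ubtf on 1460304_a_at (-0.77, adjusted p = 0.0219). For the difference between HSC and ESC, 41 other probe sets were tested, of which 13 were lower in HSC and 5 higher. The 5 were those of Nop56, Bop1, Noc2l, Heatr1 and Rrp1b. Heatr1 was called in opposite directions, at 0.47 on 1437965_at (adjusted p = 0.0274) and -0.28 on its representing probe set.

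**Figure D3:**
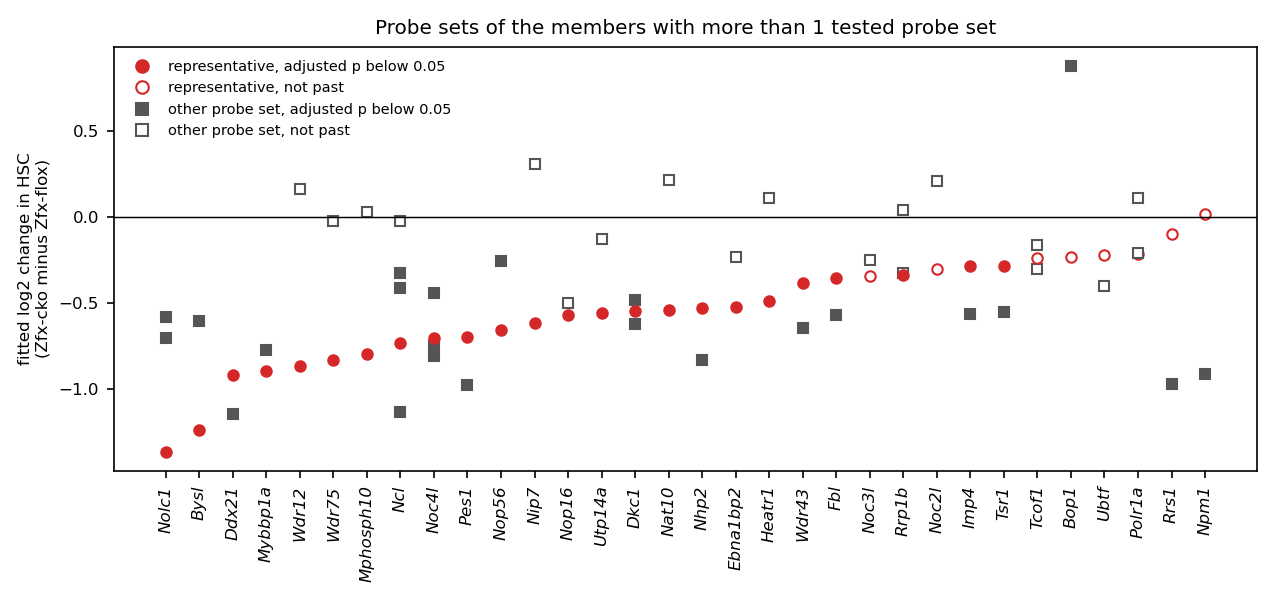
Fitted log2 change in HSC (Zfx-cko minus Zfx-flox) of every tested probe set of the 32 members with more than 1, ordered by the change of the representing probe set. Red circles are representing probe sets and grey squares are the others. Filled symbols passed an adjusted p of 0.05, adjusted over genes for circles and over all probe sets for squares. The grey squares of Npm1 and Rrs1 lie near -0.9 to -1.0 while their red circles lie near 0, and 1 filled square, of Bop1, lies above 0.

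Other ribosome biogenesis genes also fell more often than they rose in HSC. Of 99 further ribosome biogenesis genes, 61 (61.6%) fell and 5 rose in HSC, with a median log2 change of -0.38. Of all genes tested in HSC 19.9% fell and 22.7% rose. In ESC 19 (19.2%) fell and 3 rose, with a median of -0.11. Of all genes tested in ESC 14.9% fell and 15.8% rose, so the share of falls there was not far above that of all genes. With quantile normalization or median centring, 65 to 68 of the 99 fell in HSC and 12 to 24 in ESC. Without a variance trend 53 fell in HSC. With all probe sets of a gene averaged, 46 of 97 fell there, with a median of -0.28. The HSC median was -0.40 to -0.36 with 1 HSC array left out. Aatf, a nucleolar factor of the small subunit pathway, averaged 168 in Zfx-cko and 466 in Zfx-flox HSC (log2 change -1.42, adjusted p = 0.000137). The processome gene Utp6 averaged 597 in Zfx-cko and 1253 in Zfx-flox HSC (log2 change -1.05), and Pno1, a partner of Nob1, averaged 907 in Zfx-cko and 1729 in Zfx-flox HSC (-0.92). The risers were led by the polymerase subunit gene Polr1h (0.58), the large subunit factor Nsa2 (0.55) and Taf1d (0.54), a subunit of the polymerase I initiation factor. With all probe sets of a gene averaged, Nsa2 (0.16, adjusted p = 0.25) and Taf1d (0.12, adjusted p = 0.367) no longer passed, and the Utp6 change was -0.53. In ESC the largest falls were those of the terminator-binding factor Ttf1 (-1.52, and -0.79 with probe sets averaged), Aatf (-0.78) and the exosome subunit gene Exosc3 (-0.66), and the 3 risers were Polr1e (0.36), Ddx10 (0.28) and Wdr36 (0.26). The ESC call of Wdr36 was lost without any 1 of the 4 ESC arrays or any 1 Zfx-flox HSC array (adjusted p = 0.0607 to 0.185), that of Ddx10 without Zfx-null replicate 2 (adjusted p = 0.0923) or Zfx-flox replicate 2 (adjusted p = 0.117), and that of Aatf without Zfx-flox ESC replicate 1 (adjusted p = 0.0506). Those of Ddx10 and Wdr36 were also lost with probe sets averaged (adjusted p = 0.112 and 0.0595). As a difference of effects between HSC and ESC, 34 of the 99 were lower and 7 higher. Of all genes tested in both cell types 17.7% were lower and 17.6% higher.

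Cytosolic ribosomal proteins, which these factors assemble with rRNA into subunits, had small changes in HSC, and how many passed there depended on the scaling and on the model of the spread. Of 79 names, 44 had a probe set naming them alone and 43 were tested: 9 rose and 2 fell in HSC, with a median log2 change of 0.14, while 14 fell and 0 rose in ESC, with a median of -0.16. In HSC 20.9% thus rose and 4.65% fell, against 22.7% and 19.9% of all tested genes, so the share of risers was near that of all genes. In ESC 32.6% fell, against 14.9% of all tested genes. With quantile normalization 5 rose and 1 fell in HSC and 6 fell in ESC, and with median centring 1 rose and 2 fell in HSC and 4 fell in ESC; the HSC medians were then 0.04 to 0.05. Without 1 HSC array, 2 to 5 rose in HSC, and 2 without a variance trend. With only the 4 arrays of a cell type fitted, 29 rose in HSC and 4 fell in ESC, and with the replicate number as a block 29 rose in HSC and 30 fell in ESC. Both Zfx-cko arrays read above both Zfx-flox arrays for 36 of the 43 in HSC, where 39% of tested genes did so. Rpl12 averaged 959 in Zfx-cko and 709.6 in Zfx-flox HSC (log2 change 0.43, adjusted p = 0.00158), and 2068 in Zfx-null and 2668 in Zfx-flox ESC (-0.36, adjusted p = 0.00622). Rps15 rose in HSC by 0.33 and Fau by 0.23, while Rpl39 (-0.82) and Rpl14 (-0.29) fell. The HSC calls of Fau (adjusted p = 0.0768 to 0.182) and Rpl14 (adjusted p = 0.0551 to 0.168) were lost without any 1 HSC array, and that of Rpl39 without any but Zfx-flox replicate 1 (adjusted p = 0.0506 to 0.155). The largest falls in ESC were those of Rps27 (-1.13), Rpl14 (-0.41) and Rpl12. Without any 1 ESC array the call of Rps27 was lost (adjusted p = 0.0585 to 0.128), and without Zfx-flox ESC replicate 1 that of Rpl14 (adjusted p = 0.0571). The difference of effects between HSC and ESC was higher for 21 of the 43 and lower for 0, with quantile normalization or median centring for 3 to 6 and 0, and with the replicate block for 36 and 0. As reported, 17.6% of all genes tested in both cell types were higher and 17.7% lower. Ribosomal protein genes have many near-identical pseudogenes, and probe sets shared with them were left unnamed.

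**Figure D4:**
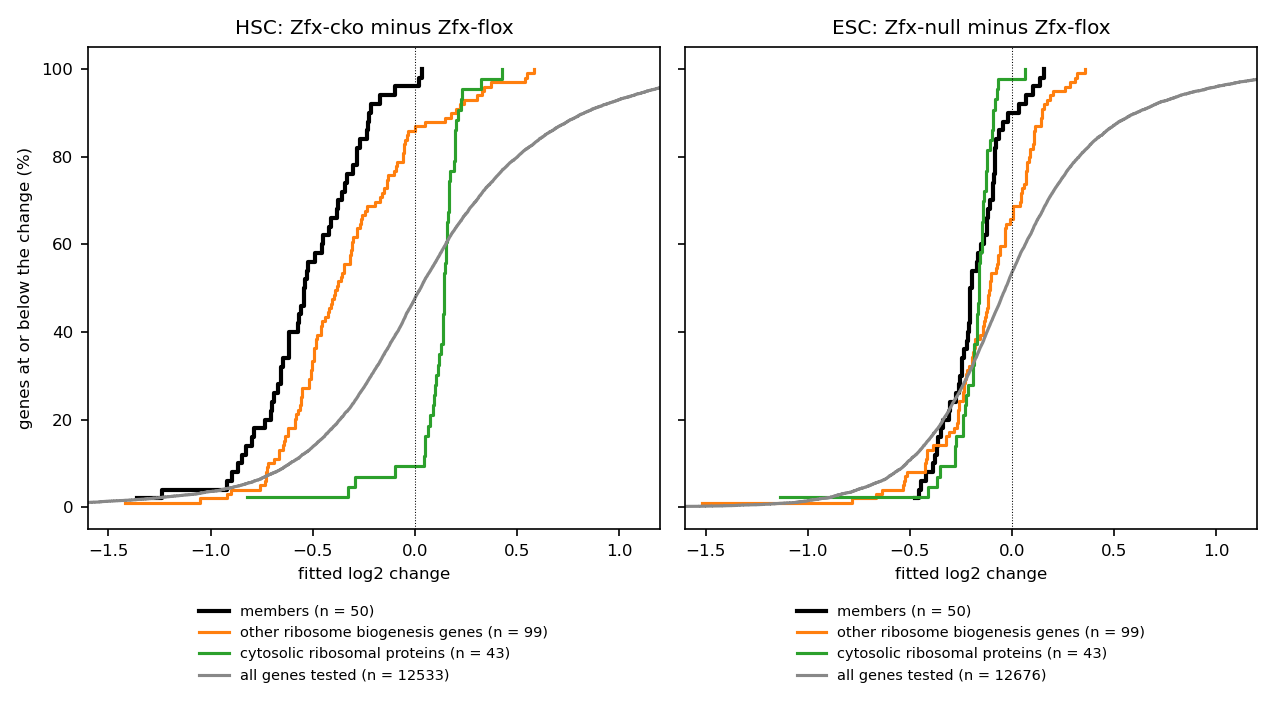
Cumulative share of genes in percent against the fitted log2 change, for Zfx-cko minus Zfx-flox HSC on the left and Zfx-null minus Zfx-flox ESC on the right; black is the 50 members, orange 99 other ribosome biogenesis genes, green 43 cytosolic ribosomal proteins and grey all tested genes. In HSC the black and orange curves lie mostly left of 0, with medians of -0.54 and -0.38, and the green curve has its median at 0.14 (0.04 to 0.05 with quantile normalization or median centring); in ESC the medians are -0.20, -0.11 and -0.16.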

How the data were processed

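The authors deposited linear probe set intensity values. GCOS 1.4 is the software named, per the submitters' processing notes, and the sources used here give no summarisation settings. Each array had a mean of 250 after removal of its lowest and highest 2%, so the deposited scaling was kept. Columns were matched to samples by title. Of 45101 probe sets, 64 were controls, 34945 had 1 gene symbol, 932 several and 9160 none. Of the first kind, 34741 matched RefSeq (assembly GRCm38.p6), giving 18193 genes.

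Values were analysed as log2(value + 14.2), where 14.2 is the 25th percentile, so changes of dim genes are understated. A gene was tested where its mean over the 4 arrays of a cell type reached the 40th percentile. limma 3.58.1 in R 4.3.3 fitted 4 group means over 8 arrays (variance trend in eBayes; 4 residual degrees of freedom). Benjamini-Hochberg adjustment ran over all genes tested in a comparison, with a threshold of 0.05. Arrays give no counts, and both their number and the spread of a gene between them limited the precision. Standard errors of the members ran from 0.05 to 0.26 in both cell types. Log2 changes had a median standard error of 0.14 in HSC and 0.15 in ESC. The steps were tested on simulated data.

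Values on every array and statistics were given for up to 12 members per comparison by size of change, for Npm1, Ncl, Fbl, Nop56 and Dkc1, for up to 6 members in the difference between cell types, and for up to 3 genes per direction of the pathway lists. Promoters, probe sets and other members were added after their values were seen. Alternatives covered the pseudocount, scaling, filter, probe set choice, arrays fitted, replicate block, variance prior and each array left out. The members and lists were chosen with earlier results of these data known.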

Additional observations from a re-analysis of the deposited data

Results flagged for a closer look

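On the representing probe sets the change without Zfx differed between HSC and ESC, by the test of the difference itself, for 22 members. Each was more negative in HSC. All values are differences of log2 changes, HSC minus ESC. Among the abundant nucleolar and box C/D proteins they were -1.01 for Nolc1, -0.83 for Ddx21, -0.57 for Ncl and -0.55 for Nop58. Mybbp1a, of RNA polymerase I transcription, differed by -0.62. In the small subunit processome the differences were -0.86 for Mphosph10, -0.86 for Wdr75, -0.68 for Nat10 and -0.58 for Utp20. They were -0.51 for Noc4l, -0.49 for Rcl1 and -0.28 for Heatr1. Heatr1 differed the other way on 1437965_at (0.47, adjusted p = 0.0274 in the fit over all probe sets). In late small subunit maturation they were -1.10 for Bysl, -0.72 for Rrp12, -0.61 for Ltv1 and -0.39 for Tsr1. In large subunit assembly they were -0.63 for Wdr12, -0.49 for Pes1, -0.48 for Nop16 and -0.42 for Nip7, with -0.36 for Gnl3 and -0.36 for Ppan. Cell type and rounds of amplification cannot be told apart in these differences. Groups of 2 arrays are too small to test single arrays as outliers.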

How the results depend on the processing

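The count of members past the threshold in HSC (39) stayed between 32 and 41 over 19 alternatives, and the count for the difference between cell types (22) between 15 and 26 over 18. The count in ESC (14) ranged from 5 to 20: it was 6 with median centring within cell types, 5 without a variance trend, and 8 to 13 with 1 array left out. The members' median log2 change in HSC (-0.54) was -0.51 with quantile normalization over all arrays, -0.64 with median centring and -0.45 with all probe sets of a gene averaged, and -0.57 to -0.51 with 1 array left out. In ESC it was -0.21 to -0.15 with 1 array left out, and the median difference (-0.32) was -0.44 with median centring. Averaging probe sets made 1 member higher in HSC and 3 higher in the difference, against 0 otherwise. Median centring moved the all-gene median of the difference to -0.09, against 0.03 as reported, and the share of its calls that were higher to 36.6%, against 49.8%.

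The fit with the replicate number as a block within cell types called 41 members in HSC, 20 in ESC and 26 for the difference; Ncl (adjusted p = 0.0368) and Npm1 (adjusted p = 0.0398) then passed in ESC. Deviations of arrays with the same number correlated at 0.09 in HSC and 0.35 in ESC, and with 2 pairs this does not show that the numbers pair the arrays.

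Npm1 changed sign with the settings. In HSC its log2 change (0.02) was -0.105 with quantile normalization inside each cell type, -0.0938 with quantile normalization over all arrays, -0.0792 with median centring and -0.447 with its probe sets averaged. With 1 array left out it was -0.00047 (without Zfx-cko replicate 1) to 0.0376. In ESC (-0.11) it was 0.00211 and 0.00337 with the same quantile normalizations. The named members kept direction and call in 281 of 304 single results in HSC, 225 of 266 in ESC and 103 of 108 for the difference. The cause of these shifts was not tested.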
